A study of Mus musculus with 12 samples.

Results

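The genes described here encode 5 S100 proteins (S100a4, S100a6, S100a10, S100a11 and S100a13), 2 galectins (Lgals1 and Lgals3), annexin A2 (Anxa2) and vimentin (Vim). They were chosen by name, each of the 9 symbols matched 1 row of the deposited count table, and the table holds 13780 genes. CD8+ T cells came from the spleens of wild-type C57BL/6J mice aged 8 to 12 weeks, by positive selection on magnetic beads. They were measured by RNA-seq in 12 libraries, 4 in each of 3 groups. Naïve cells were frozen straight after isolation, without activation or treatment. Both other groups spent 72 h with beads carrying anti-CD3 and anti-CD28 and with IL-2 at 10 U/ml, either in plain media (called media here) or with sodium lactate added at 40 mM (called lactate here). Because the control was plain media, sodium and osmolarity differed between both activated groups together with lactate and cannot be told apart from it.

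S100 proteins are small calcium-binding proteins that act by docking onto partner proteins, and most of their genes lie side by side in 1 cluster. S100A10 is the exception that has lost calcium binding and instead pairs with annexin A2, a protein that attaches to membranes in the presence of calcium. Galectins bind β-galactoside sugars on glycoproteins, inside and outside the cell, and vimentin forms the intermediate filaments of lymphocytes and mesenchymal cells. In CD8+ T cells this set is known for higher transcript levels in effector and memory cells than in naïve cells.

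Values are CPM, read counts relative to library size, scaled by edgeR's TMM factors. Differences are log2 fold changes (log2FC) with their standard error (SE). A gene was called higher or lower at an adjusted p of at most 0.01 (edgeR quasi-likelihood test, Benjamini-Hochberg over all 13767 tested genes). All 9 genes passed the filter of 1 CPM in 3 or more libraries. S100a4 did so in only 7 libraries, none of them media. Library totals ran from 14726904 to 21478137 counts, and the 9 genes together took 0.0662% ± 0.0035 (SD, n = 4) of the counts in naïve cells, 0.281% ± 0.037 in media and 0.287% ± 0.041 with lactate. Naïve libraries came from 4 donors and activated libraries from 5, of which 3 supplied libraries of both conditions. Library numbers in the labels were split into a low run of 8 libraries and a high run of 4. The high run holds 1 media and 1 naïve library. The labels name no batch or sequencing run, so these library runs are a reading of the numbers. Donor tags of activated libraries recur in both runs and were read as different donors in each. The donor numbers above and the donor blocks below rest on that reading. Naïve column names carry no donor tag.

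The naïve libraries also carried RNA of other cells. The CD8+ T cell markers (6 of 6 tested) summed to between 1906 and 3953 CPM in naïve, 2905 and 3685 in media and 2180 and 2762 with lactate. The 12 macrophage and monocyte markers summed to between 1354 and 4694 CPM in naïve libraries, against 64.2 to 91.3 in media and 48.9 to 65.3 with lactate. The 7 neutrophil markers reached 108 to 669 CPM in naïve libraries and at most 0.251 CPM in any activated library, where the defining S100a8 and S100a9 had 0 counts in all 8. B cell markers (8 tested) were at 649 to 1563 CPM in naïve libraries, 12.7 to 21.4 in media and 7.79 to 10.1 with lactate. Red cell markers (5 tested) were at 85.1 to 3495 CPM in naïve libraries and at most 1.90 in activated ones, dendritic cell markers (6) at 76.2 to 156 and at most 4.30, and NK cell markers (5) at 78.6 to 166 in naïve, 3.62 to 6.71 in media and 9.64 to 32.2 with lactate. Every list of other cells named so far was thus highest in naïve libraries. The 3 CD4+ markers summed to 76.0 to 89.4 CPM with lactate, 44.6 to 55.8 in media and 26.1 to 55.3 in naïve. In activated libraries nearly all of that sum was Zbtb7b (47.4 ± 5.31 CPM in media and 81.4 ± 5.79 with lactate), while Cd4 itself averaged 22.1 CPM in naïve, 0.348 in media and 0.541 with lactate, and Foxp3 was also highest in naïve. Stromal and endothelial markers, of which 2 of 6 were tested, were at 157 to 207 CPM in naïve, 44.9 to 76.7 in media and 27.5 to 34.1 with lactate. Several of these proteins, S100A4, S100A6 and galectin-3 among them, are abundant in myeloid cells, so the naïve comparisons below are given with these sums, whose part in them was not tested. Between lactate and media the sums of 5 lists did not overlap. With lactate, 3 of 6 CD8+ T cell markers were called lower (Cd3d, Cd3e and Cd3g), 3 of 8 B cell markers lower, 1 of 2 stromal and endothelial markers lower, 1 of 3 CD4+ markers higher (Zbtb7b) and 1 of 5 NK cell markers higher. The last was Eomes, a transcription factor also found in activated CD8+ T cells (log2FC 1.86, adjusted p = 0.000783), and the defining NK marker Ncr1 had 0 counts in media and averaged 0.0128 CPM with lactate. The part of these lists in the lactate and media values below was not tested. In bulk RNA, fewer cells of a type and less RNA per cell cannot be told apart.

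**Figure D1:**
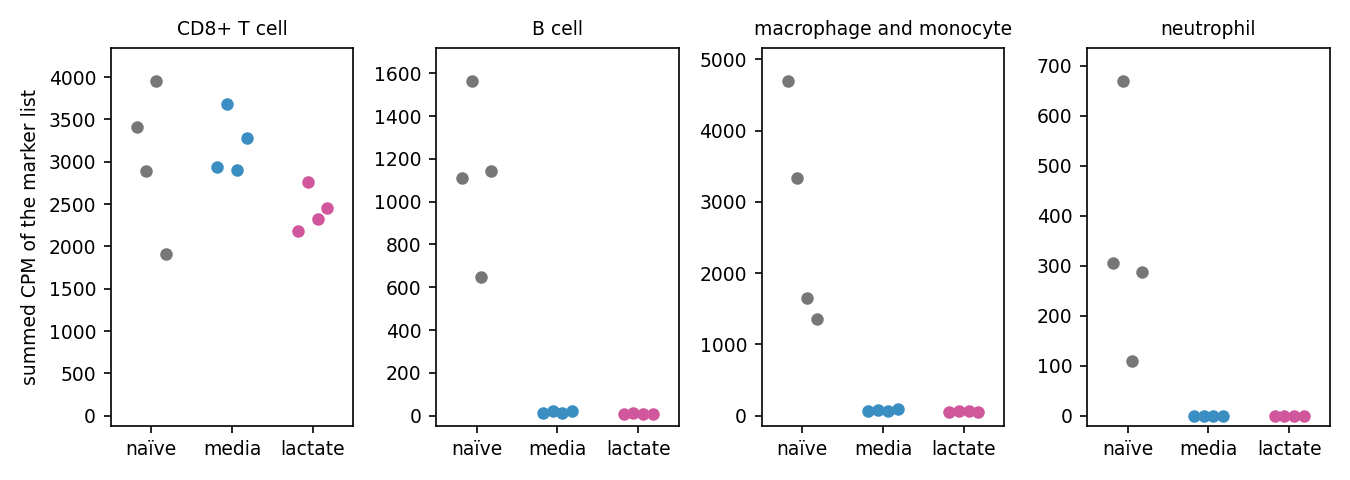
Summed CPM (y axis, linear, a separate scale in each panel) of 4 marker lists in each of the 12 libraries, with groups on the x axis and 1 point per library. The 4 naïve libraries lie between 1354 and 4694 CPM for macrophage and monocyte markers and no activated library lies above 91.3, whereas the CD8+ T cell sums of naïve libraries overlap those of both activated groups, with all lactate libraries below all media libraries.

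Lactate was compared with media to ask what sodium lactate did to these transcripts during activation. At an adjusted p of at most 0.01, 2 of the 9 genes were higher with lactate, S100a4 and S100a6, and 0 were lower (1, Anxa2, at an unadjusted p under 0.05, and 0 with DESeq2). Among all tested genes 25.1% were called, 13.9% higher and 11.1% lower. The median log2FC of the 9 genes was 0.37, against -0.0016 over all genes, with a range from -0.47 (Anxa2) to 2.86 (S100a4). Lactate and media libraries did not overlap for 6 of the 9 genes, where 44.7% of all genes did not overlap.

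**Figure D2:**
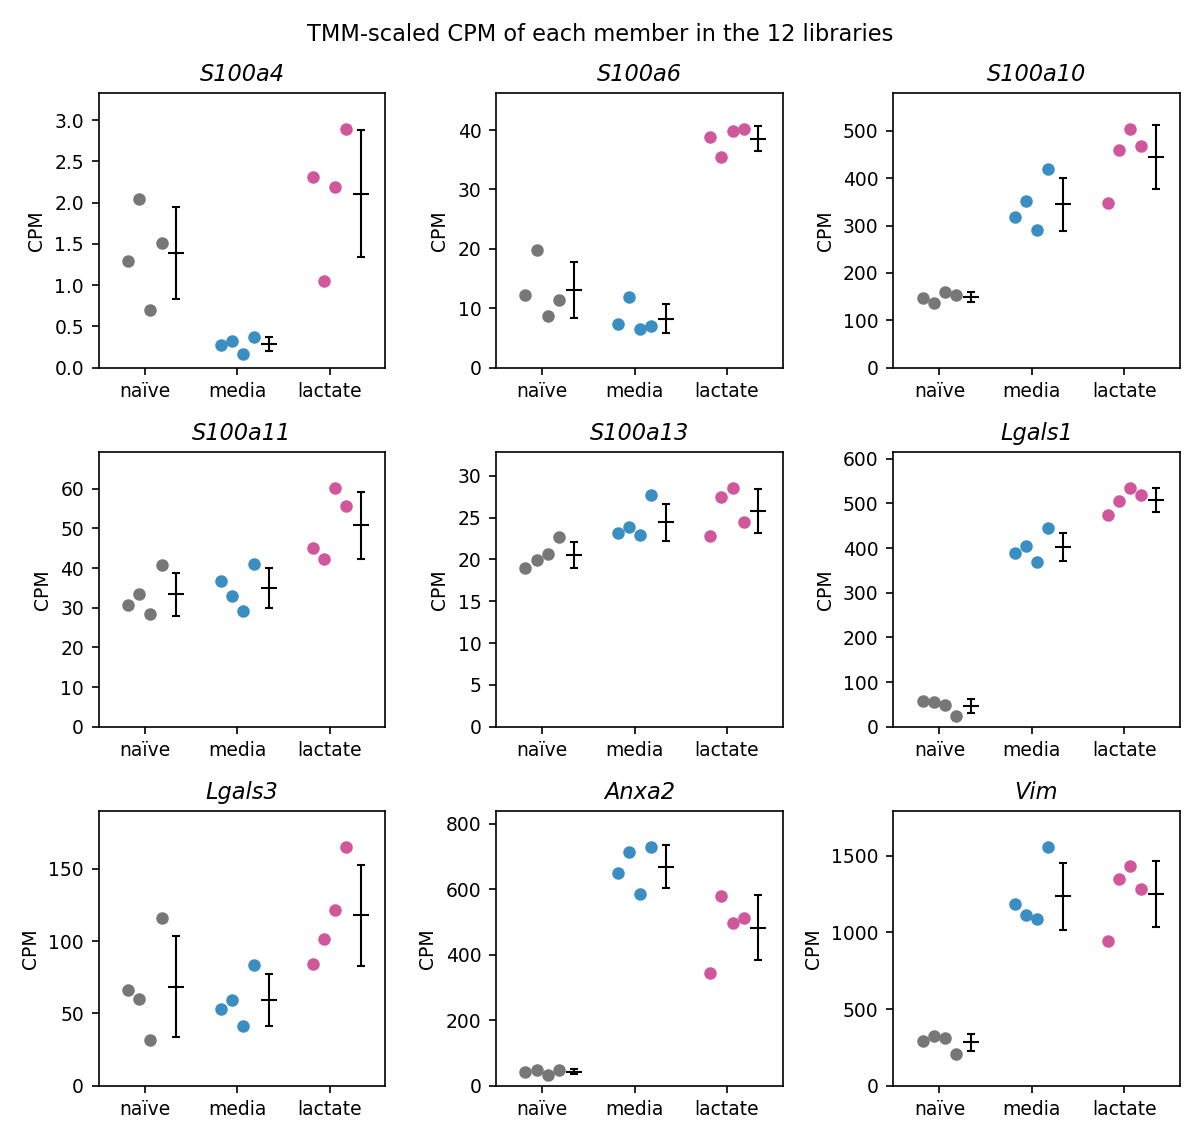
TMM-scaled CPM (y axis, linear, from 0, a separate scale per gene) of the 9 genes in naïve, media and lactate libraries, with 1 point per library and the mean ± SD (n = 4) beside each group. S100a6 in lactate libraries (35.5 to 40.1 CPM) stands above all other libraries, whose highest value is 19.9 CPM, while Anxa2, Lgals1 and Vim separate naïve from activated libraries.

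S100a4 and S100a6 lie close together among the S100 genes of chromosome 3, both on the + strand (chr3:90603771-90606045 and chr3:90612882-90624181 in GRCm38), with 6.84 kb and the gene S100a5, which was not among the genes tested, between them. Anxa2 (chr9:69453620-69491795) and Vim (chr2:13573927-13582826), also on the + strand, are the members with the lowest log2 fold changes between lactate and media. The 250 bases before the RefSeq start of these 4 genes (GRCm38.p6, + strand) are shown to set the called pair beside these, with capitals marking matches on either strand to 8 short promoter motifs.
S100a4, chr3:90603520-90603769: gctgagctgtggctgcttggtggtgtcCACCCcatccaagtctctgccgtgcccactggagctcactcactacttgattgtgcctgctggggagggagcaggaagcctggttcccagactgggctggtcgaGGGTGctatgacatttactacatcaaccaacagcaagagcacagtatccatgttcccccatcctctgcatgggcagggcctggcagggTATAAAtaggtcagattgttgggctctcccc
S100a6, chr3:90612644-90612893: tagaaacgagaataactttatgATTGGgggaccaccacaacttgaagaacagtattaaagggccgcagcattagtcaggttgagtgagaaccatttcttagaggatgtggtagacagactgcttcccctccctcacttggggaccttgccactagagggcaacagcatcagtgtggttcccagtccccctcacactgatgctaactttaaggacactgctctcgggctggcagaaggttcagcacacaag
Anxa2, chr9:69453433-69453682: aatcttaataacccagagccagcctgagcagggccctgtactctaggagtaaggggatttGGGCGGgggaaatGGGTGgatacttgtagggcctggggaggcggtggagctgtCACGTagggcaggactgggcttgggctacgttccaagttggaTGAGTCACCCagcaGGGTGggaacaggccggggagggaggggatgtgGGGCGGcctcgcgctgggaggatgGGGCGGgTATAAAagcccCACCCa
Vim, chr2:13574061-13574310: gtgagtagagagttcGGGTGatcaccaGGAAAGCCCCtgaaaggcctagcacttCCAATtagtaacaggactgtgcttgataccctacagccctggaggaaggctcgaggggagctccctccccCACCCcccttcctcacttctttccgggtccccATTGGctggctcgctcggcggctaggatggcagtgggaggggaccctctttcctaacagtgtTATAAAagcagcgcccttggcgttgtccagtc
The promoter table held 7 of the 9 genes (S100a10 and Lgals1 were not found there). The TATA box letters TATAAA, present in 12.4% of 32851 promoter windows, stood 31 to 26 bases before the start of S100a4, 32 to 27 before Vim and 17 to 12 before Anxa2, and were not in the S100a6 window. CCAAT, in 33.8% of windows, matched in S100a6, Vim and Lgals3. The S100a6 window held no match to the other 7 motifs, and that of S100a4 held only TATAAA and CACCC (52% of windows). The AP-1 letters TGANTCA (6.75% of windows) matched in Anxa2 and at 2 places in S100a11, and the NF-kB motif (1.41%) in Vim alone. ACGTG (16.6%) matched in Anxa2 and S100a11, in S100a11 within CACGTG (6.02%), and GGGCGG (32.7%) in Anxa2, Lgals3 and S100a11. These matches describe letters only.

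S100a4 (ENSMUSG00000001020) encodes a protein that binds non-muscle myosin. It had 2.31, 1.05, 2.19 and 2.89 CPM in lactate replicates 1 to 4 and 0.277, 0.327, 0.167 and 0.376 CPM in media. These values rest on few reads, 45, 20, 31 and 60 counts with lactate and 6, 6, 3 and 6 in media, and the groups did not overlap. The log2FC was 2.86 (SE 0.43, adjusted p = 0.000349), and the pooled counts, 156 against 21, gave a ratio of 7.25 with an exact 95% interval of 4.58 to 12.0 that covers counting error only. Of the exonic bases of S100a4, 51.7% are shared with Gm42674 on the same strand, so its counts are uncertain. Naïve cells had 1.30, 2.04, 0.700 and 1.51 CPM, between media and most lactate libraries. S100a4 was thus lower in media than in naïve cells (log2FC -2.25, SE 0.44, adjusted p = 0.000532) while lactate against naïve was not called (0.61, SE 0.37, adjusted p = 0.152).

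S100a6 (ENSMUSG00000001025) encodes calcyclin, a partner of annexins and of the calcyclin-binding protein CacyBP. Its lactate libraries were close together, at 38.8, 35.5, 39.8 and 40.1 CPM. Media libraries had 7.40, 11.8, 6.58 and 7.08 CPM, so the groups stood well apart. The log2FC was 2.23 (SE 0.25, adjusted p = 8.01e-05). Naïve libraries ranged from 8.73 to 19.9 CPM and were highest in replicate 2 and lowest in replicate 3. Replicate 2 also had the highest neutrophil, B cell, dendritic cell and red cell sums, and replicate 3 the lowest neutrophil, B cell and NK cell sums. The NK cell and macrophage sums, however, were highest in replicate 1, and the dendritic cell, red cell and macrophage sums were lowest in replicate 4. Lactate exceeded naïve for S100a6 by 1.56 on the log2 scale (SE 0.24, adjusted p = 7.36e-05), and media against naïve was -0.67 (SE 0.24, adjusted p = 0.0275).

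S100a10 (ENSMUSG00000041959, chr3:93555080-93564643, + strand) encodes the annexin A2 partner p11. It had 146, 136, 160 and 154 CPM in naïve, 319, 352, 290 and 419 in media and 347, 460, 503 and 469 with lactate. Every activated library was above every naïve library, while media and lactate overlapped. S100a10 was higher in media than in naïve cells by a log2FC of 1.21 (SE 0.14, adjusted p = 6.09e-06), and lactate against naïve was 1.58 (SE 0.14, adjusted p = 4.94e-07). Between lactate and media it was 0.37 (SE 0.13, adjusted p = 0.0453), which missed the threshold.

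S100a11 (ENSMUSG00000027907, chr3:93520488-93526287, + strand) encodes a further S100 protein with annexin partners, and lies 28.8 kb from S100a10. Its libraries had 45.0, 42.3, 60.1 and 55.7 CPM with lactate and 36.9, 32.8, 29.2 and 41.1 CPM in media. All lactate libraries were above all media libraries, yet the log2FC of 0.54 (SE 0.15, adjusted p = 0.0152) was not called. With the donor as a block in all 12 libraries it was 0.42 (adjusted p = 0.0870), and with that block in the 8 activated libraries alone, a fit added after seeing the data, S100a11 passed (0.43, adjusted p = 0.00890). Against the naïve libraries, at 28.4 to 40.9 CPM, lactate was higher by 0.60 (SE 0.15, adjusted p = 0.00334) and media was not called (0.07, SE 0.15, adjusted p = 0.719). The call against naïve was lost when any of 5 single libraries was left out (adjusted p = 0.0134 to 0.0275) and without both naïve libraries with the most macrophage markers (0.0495).

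S100a13 (ENSMUSG00000042312, chr3:90514435-90524581, + strand), which takes part in the export of proteins without a signal peptide, had the smallest fold between its highest and lowest group mean among the S100 genes. Levels were 20.6 ± 1.55 CPM in naïve, 24.4 ± 2.23 in media and 25.8 ± 2.64 with lactate (SD, n = 4 each). It was not called in any of the 3 comparisons, with a log2FC of 0.08 between lactate and media (SE 0.11, adjusted p = 0.618), 0.25 between media and naïve (adjusted p = 0.0664) and 0.33 between lactate and naïve (adjusted p = 0.0186). Without naïve replicate 4 the last of these passed (0.37, adjusted p = 0.00991), and without lactate replicate 3 it was 0.21 (adjusted p = 0.149).

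Lgals1 (ENSMUSG00000068220, chr15:78926725-78930465, + strand) encodes galectin-1, a small dimeric galectin. Naïve libraries had 57.5, 55.6, 49.5 and 22.9 CPM, media 390, 405, 370 and 445, and lactate 473, 504, 534 and 520. The groups stood apart without overlap, in the order naïve, media, lactate. Lgals1 rose on activation in media by 3.12 on the log2 scale (SE 0.23, adjusted p = 1.88e-07) and with lactate by 3.45 (SE 0.24, adjusted p = 6.49e-08). The difference between lactate and media was 0.34 (SE 0.21, adjusted p = 0.236, not called). Naïve replicate 4, which had the lowest Lgals1, also had the lowest sums of CD8+ T cell and of macrophage and monocyte markers. Its dendritic cell, red cell, and stromal and endothelial sums were the lowest too. The fit without this library gave Lgals1 an adjusted p of 0.00478 between lactate and media.

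Lgals3 (ENSMUSG00000050335, chr14:47367751-47386160, + strand) encodes galectin-3, the galectin with a collagen-like tail. Apart from S100a4, it varied most within groups, with 66.4, 59.6, 31.7 and 116 CPM in naïve, 52.7, 59.4, 41.3 and 83.6 in media and 83.9, 101, 121 and 165 with lactate. The lactate libraries lay just above the media libraries and overlapped the naïve ones. The log2FC between lactate and media was 0.99 (SE 0.34, adjusted p = 0.0354), which was not called. With the donor as a block in all 12 libraries it was 0.98 (adjusted p = 0.125), and with the added donor block in the activated libraries alone 0.99 (adjusted p = 0.000927), which passed. Neither activated group was called against naïve, with -0.21 for media (SE 0.34, adjusted p = 0.605) and 0.78 for lactate (SE 0.34, adjusted p = 0.0524). Of the naïve libraries, replicate 4 had the highest Lgals3 and the lowest macrophage and monocyte sum (1354 CPM). It also had the lowest CD8+ T cell sum (1906 CPM), and the lowest dendritic cell, red cell, and stromal and endothelial sums. Replicate 3 had the lowest Lgals3, the highest CD8+ T cell sum (3953 CPM) and the lowest neutrophil, B cell, NK cell and CD4+ sums. The part of these sums in Lgals3 was not tested. Without naïve replicate 4, media against naïve turned to 0.17 and lactate against naïve passed (1.16, adjusted p = 0.00395). Lactate against naïve fell to 0.46 without naïve replicate 3 (adjusted p = 0.182) and to 0.51 without lactate replicate 4 (adjusted p = 0.212), and media against naïve was -0.52 without naïve replicate 3.

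Anxa2 (ENSMUSG00000032231) encodes annexin A2, the membrane-binding partner of S100A10. Its levels were 41.3, 47.8, 31.5 and 48.9 CPM in naïve, 649, 714, 586 and 728 in media and 345, 578, 497 and 512 with lactate. It was thereby the gene of the 9 with the largest change on activation, 3.98 on the log2 scale in media (SE 0.19, adjusted p = 5.97e-09) and 3.51 with lactate (SE 0.18, adjusted p = 1.05e-08). Anxa2 was also the one member with a negative value between lactate and media, -0.47 (SE 0.17, adjusted p = 0.0401). That difference was not called, although every lactate library was below every media library. Of its exonic bases, 2.63% face Gm16144 on the opposite strand.

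Vim (ENSMUSG00000026728) had 294, 325, 311 and 204 CPM in naïve, 1185, 1113, 1085 and 1556 in media and 943, 1351, 1433 and 1282 with lactate. The activated libraries interleaved and all lay above the naïve ones. Vim rose by 2.12 on the log2 scale on activation in media (SE 0.18, adjusted p = 5.81e-07) and by 2.14 with lactate (SE 0.18, adjusted p = 3.82e-07). Between lactate and media it was 0.02 (SE 0.17, adjusted p = 0.952), a sign that turned with the scaling.

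Within library runs, the log2 differences between lactate and media had the same sign in both runs for 7 of the 9 genes, S100a13 and Vim being the exceptions. For S100a4 the low run gave 2.21 and the high run 2.43, and for S100a6 the values were 2.14 and 2.48. Lgals3 gave 0.87 and 0.76, S100a11 0.41 and 0.49, S100a10 0.32 and 0.21, Lgals1 0.33 and 0.24, and Anxa2 -0.54 and -0.53. S100a13 gave 0.10 and -0.07, and Vim 0.0021 and -0.20.

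The number of genes called between lactate and media depended on which libraries entered the fit. A fit of the media and lactate libraries alone called 5 of the 9 (S100a4, S100a6, S100a11, Lgals1 and Lgals3, all higher), against 36.9% of all genes there. A donor block in the same 8 libraries called 4 (29.3% of all genes), and a donor block in all 12 libraries called the same S100a4 and S100a6 (7.21% of all genes). Without naïve replicate 4 the fit called 4 (35.6% of all genes), and an adjusted p of at most 0.05 took in 6 (39.7% of all genes). S100a6 was called under all 28 alternatives and S100a4 under the 27 that could test it.

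**Figure D3:**
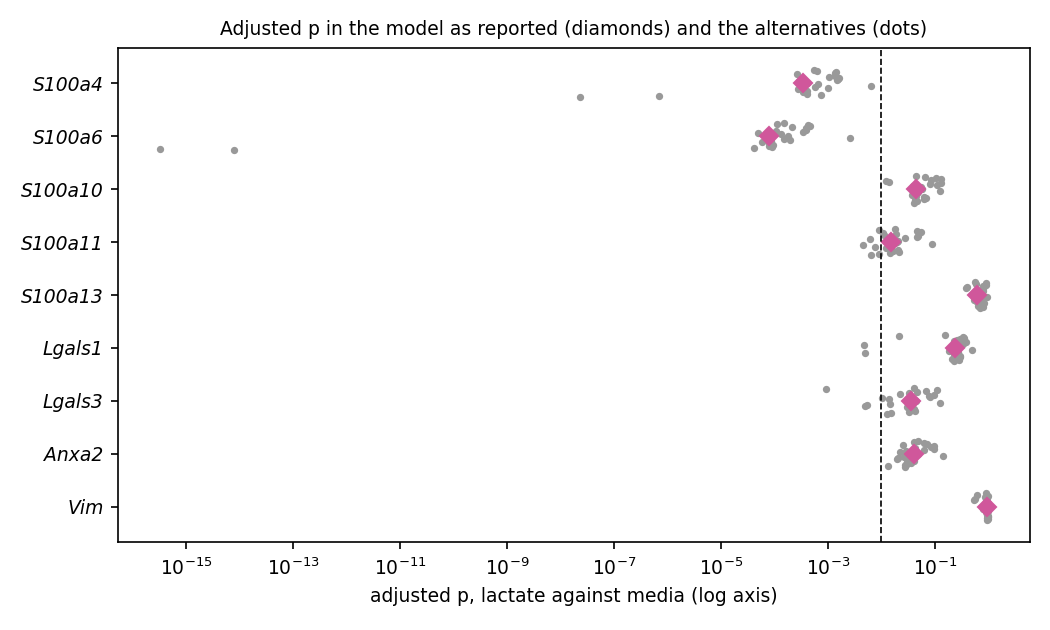
Adjusted p between lactate and media (x axis, log scale) for each gene (y axis) in the model as reported (diamonds) and under each alternative (dots), with the dashed line at 0.01. All dots of S100a4 and S100a6 lie left of the line, those of S100a10, S100a13, Anxa2 and Vim all lie right of it, and those of S100a11, Lgals1 and Lgals3 fall on both sides.

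In media against naïve, 4 of the 9 genes were higher (S100a10, Lgals1, Anxa2 and Vim) and 1 was lower (S100a4), where 28.5% of all genes were higher and 29.0% lower, 57.5% in all. Media and naïve libraries did not overlap for 6 of the 9, against 61.2% of all genes. With lactate against naïve 6 were higher, the same 4 with S100a6 and S100a11, and 0 were lower (also 0 with DESeq2 and at an unadjusted p under 0.05), where 33.0% of all genes were higher and 32.0% lower, 65.0% in all. Lactate and naïve libraries did not overlap for 7 of the 9, against 67.8% of all genes. Both comparisons share the naïve libraries. The median of the 9 genes was 0.25 for media and 1.56 for lactate on the log2 scale, against -0.03 and 0.01 over all genes. The called genes kept their sign in both library runs, though the high run has 1 naïve library. Leaving out both naïve libraries with the most macrophage markers gave 5 called genes in each comparison (46.3% of all genes for media and 54.7% for lactate).

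**Figure D4:**
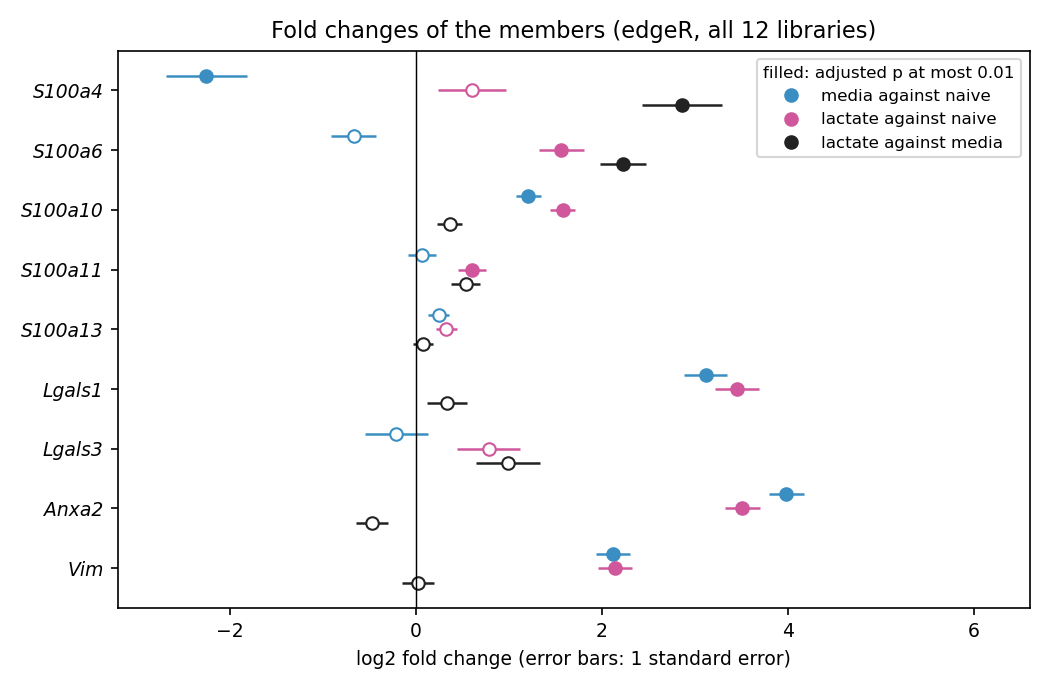
Log2 fold changes of the 9 genes (x axis) in media against naïve, lactate against naïve and lactate against media, with bars of 1 standard error and filled points for an adjusted p of at most 0.01. Anxa2, Lgals1, Vim and S100a10 lie well to the right in both comparisons with naïve and between -0.47 and 0.37 for lactate against media, and S100a4 and S100a6 lie to the right between lactate and media.

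Levels were compared between genes in TPM, which divides the counts by gene length and scales each library to the same total. In naïve cells S100a10 stood first at 420 ± 41.0 TPM (SD, n = 4), with S100a11 (224), Vim (203), Lgals1 (174) and Lgals3 (127) following and each overlapping the next, then S100a13 (98.2), Anxa2 (38.8), S100a6 (32.4) and S100a4 (8.08). In media Lgals1 led at 1543 ± 78.6 TPM, above S100a10 (983) and Vim (899), whose ranges overlapped, and above Anxa2 (621). The order with lactate was again Lgals1 (1772 ± 32.2), S100a10 (1154), Vim (830) and Anxa2 (407), here with the ranges of S100a10 and Vim apart and those of Anxa2 and S100a11 (312) overlapping. Lgals1 thus moved from the fourth place in naïve cells to the first in both activated groups, and Anxa2 from the seventh to the fourth. S100a6 and S100a4 stayed in the last places of every group, S100a6 at 20.9 TPM in media and 89.0 with lactate and S100a4 at 1.70 and 11.3.

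The ratio of S100a10 to Anxa2 transcripts in TPM separated all 3 groups. In naïve replicates 1 to 4 it was 10.9, 8.74, 15.6 and 9.70, in media 1.51, 1.52, 1.52 and 1.77 and with lactate 3.10, 2.45, 3.11 and 2.82. Each activated library thus had far more Anxa2 per S100a10 than any naïve library, and lactate libraries lay between media and naïve. Lactate exceeded media by 0.86 on the log2 scale, and media and lactate were at -2.80 and -1.94 relative to naïve. Each of these differences had p = 0.0286 in the exact two-sided permutation test, the smallest that 4 against 4 libraries allow, and an adjusted p of 0.0343 over the 6 ratio tests. Within library runs the lactate against media difference was 0.86 and 0.74.

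The ratio of Lgals1 to Lgals3 rose on activation and was spread widely in every group. It was 1.78, 1.92, 3.21 and 0.406 in naïve replicates 1 to 4, 15.2, 14.04, 18.4 and 10.96 in media and 11.6, 10.2, 9.05 and 6.49 with lactate. Naïve libraries were below all activated ones, and lactate overlapped media in 1 library. The log2 differences were 3.31 for media and 2.65 for lactate against naïve (exact permutation p = 0.0286 and adjusted p = 0.0343 for each), and -0.66 between lactate and media (exact permutation p = 0.0571, adjusted p = 0.0571), which missed the threshold of 0.05.

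**Figure D5:**
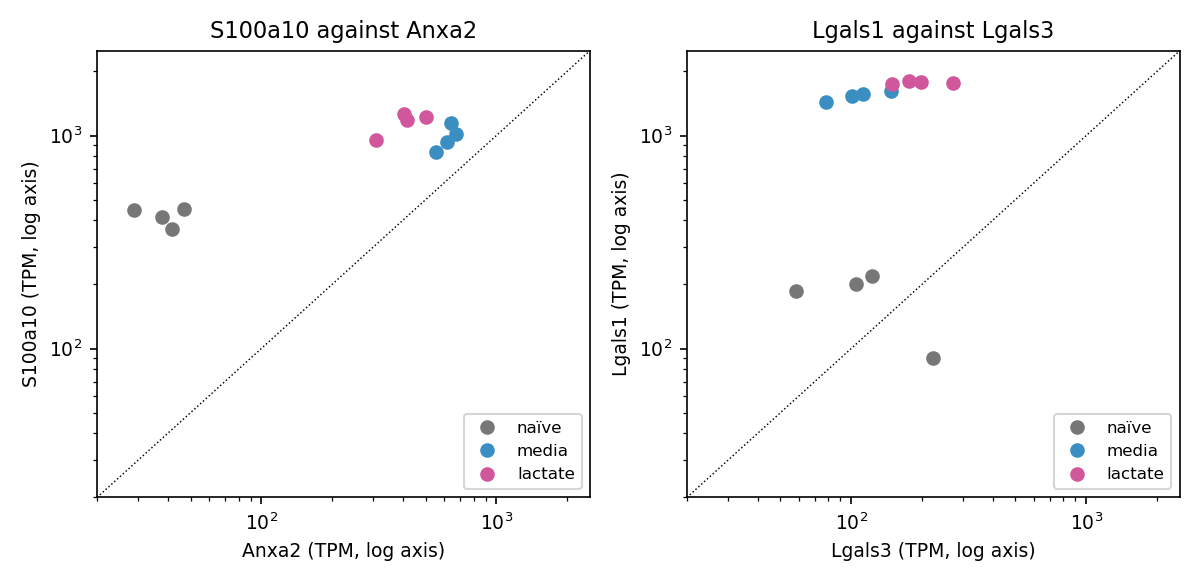
S100a10 against Anxa2 (left) and Lgals1 against Lgals3 (right) in TPM on log axes, with 1 point per library and a dotted line of equal level. On the left the lactate libraries lie further from the line (ratios 2.45 to 3.11) than the media libraries (1.51 to 1.77), and on the right naïve replicate 4 is the only library below the line (ratio 0.406).

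Relatives and partners of these genes were counted from lists written from general knowledge, but with earlier results of these data known. Of the other S100 genes 3 were tested, S100a1, S100a8 and S100a9, and between lactate and media 0 were called by edgeR (1 higher with DESeq2 and 1 higher at an unadjusted p under 0.05). The same list held S100pbp, which encodes an S100P-binding protein outside the S100 family and was lower with lactate (190 ± 56.2 against 94.1 ± 10.4 CPM, log2FC -1.02, adjusted p = 0.0040). S100a1, beside S100a13 in the cluster, had 4.86 ± 0.767 CPM in media and 10.0 ± 1.92 with lactate (1.04, adjusted p = 0.0226, not called). S100a8 and S100a9 had counts in naïve libraries only, so neither could be called between lactate and media, and the count of 0 rests on S100a1. Within 100 kb of the stretch from S100a13 to S100a6, 25 genes are annotated and 10 were tested, of which 4 were called, all higher with lactate. Besides S100a4 and S100a6 these were Ilf2 (0.68, adjusted p = 0.000256) and Chtop (0.52, adjusted p = 0.000473), so the called genes of this stretch were not all S100 genes. Among all tested genes 25.1% were called, 13.9% higher. The 10 tested genes include the members that set the stretch, as well as S100a8 and S100a9, which could not be called. The count is therefore no sign of a rise along the stretch. Around S100a11 and S100a10, the same distance held 2 tested genes, both members.

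Of 5 other genes of galectins and galectin-like proteins tested, 1 was higher and 2 were lower with lactate, where 13.9% of all genes were higher and 11.1% lower. Lgals7 was at 0.817 ± 0.296 CPM in media and 3.54 ± 1.5 with lactate (log2FC 2.10, adjusted p = 0.00749), a low level. Its highest library had 0.601 CPM in naïve and 1.00 in media, against 1.90 to 5.38 with lactate. Lgals7 thus passed the filter only with its lactate libraries, the group where it is high. Lgals4, a galectin with tandem binding domains, fell from 37.9 ± 8.06 to 11.2 ± 4.00 CPM (-1.76, adjusted p = 0.000423), and Lgals8, of the same build, from 46.6 ± 7.67 to 21.4 ± 2.30 CPM (-1.12, adjusted p = 6.91e-05). The median of the 5 was -0.60, below the 0.34 and 0.99 of Lgals1 and Lgals3. Lgals3bp, which encodes a glycoprotein that binds galectin-3, was in the same list and was not called (-0.05, adjusted p = 0.937). Of 8 other annexin genes, Anxa3 was higher (0.34 ± 0.10 to 1.5 ± 0.57 CPM, 2.09, adjusted p = 0.00285) and Anxa4 lower (57.1 ± 5.96 to 31.6 ± 9.69 CPM, -0.85, adjusted p = 0.00805). Anxa3 was at a low level in both activated groups and at 5.87 ± 2.85 CPM in naïve. It was lower with lactate than in naïve cells (-1.96, adjusted p = 0.000460). On activation in media, 2 annexin genes were higher and 3 lower, where 28.5% of all genes were higher and 29.0% lower. Anxa4 was among the higher annexin genes (2.08, adjusted p = 4.62e-06). Of 7 other intermediate filament genes, 0 were called between lactate and media by edgeR or DESeq2 (1 higher and 1 lower at an unadjusted p under 0.05). Against naïve, 3 of the 7 were higher in media and 3 lower, beside 28.5% and 29.0% of all genes.

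Among 18 tested genes of known binding partners, 2 were higher and 3 lower with lactate. Cacybp, the partner of S100A6, was higher too, from 79.3 ± 11.6 to 174 ± 26.6 CPM (1.13, adjusted p = 0.0019), and Cd2, an adhesion receptor, by 0.51 (adjusted p = 0.0091). Ahnak, the giant scaffold bound by the S100A10 and annexin A2 pair, fell from 421 ± 111 to 192 ± 32.3 CPM (-1.13, adjusted p = 0.00101). The other decreases were of Cd7, from 26.5 ± 8.53 to 1.71 ± 1.29 CPM (-3.94, adjusted p = 0.000325), and of Ptprc, encoding CD45 (-0.70, adjusted p = 0.000345). Of 24 actin and membrane cytoskeleton genes, 4 were higher and 1 lower. The higher ones were Capg, an actin-capping protein (1.12, adjusted p = 0.00431), Cfl1, cofilin (0.73, adjusted p = 0.00182), Myl12a, a myosin light chain (0.62, adjusted p = 0.00124), and Tpm3, a tropomyosin (0.42, adjusted p = 0.000985), and the lower one was Emp3 (-0.61, adjusted p = 0.00169). The list medians were -0.03 for partners and 0.15 for cytoskeleton genes. Shares called, 5 of 18 and 5 of 24, stand beside 25.1% of all genes.

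The genes with the most similar profile to each of the 9 were found by the root mean square (RMS) difference of centred log2 CPM. This was taken over the 12 libraries, among 10300 genes outside the 9 with a mean of at least 5 CPM. S100a13 had the closest neighbours, Zfyve19 and Eif3f (0.0762 and 0.0782), and S100a11 the next, Fbxo6 (0.108) and Acd (0.127). For S100a10 they were Bex3 (0.141) and Lsm3 (0.142), for Vim Mvk (0.161) and Me2 (0.185), and for Lgals1 Eno1 (0.184) and Tlcd2 (0.223). Anxa2 was nearest to Aldoa (0.213), which had 326 CPM in naïve, 4444 in media and 3383 with lactate, and to Klc3 (0.234). Lgals3 had Cd9 (0.277) and Marveld2 (0.302). The least close were those of S100a6, Mpp1 (0.444) and Ifrd2 (0.498), and of S100a4, Dusp3 (0.553) and B3galt6 (0.577), and S100a4 and S100a6 were each other's nearest among the 9 genes (0.642). The profiles share libraries and the step from naïve to activated, so these values are descriptions.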

How the data were processed

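Counts were obtained by RNA-seq of 12 libraries of mouse CD8+ T cells in 3 groups of 4. The authors aligned reads to GRCm38 with STAR 2.7.5b, discarded PCR duplicates, and used featureCounts on uniquely mapped reads and the exons of Ensembl release 99, and the deposited table holds raw counts per gene with gene length. The strand setting is not given in the sources used here. Groups, donor tags of activated libraries and library numbers come from the labels, replicate numbers from the titles. The genes and lists were chosen with earlier results of these data known.

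A filter of 1 CPM in 3 libraries kept 13767 of 13780 genes, which were scaled by TMM and fitted in 1 quasi-likelihood model with 3 groups (R 4.3.3, edgeR 4.0.16, limma 3.58.1). Tests were two-sided (threshold 0.01, and 0.05 for ratios). Benjamini-Hochberg adjustment was over all tested genes, and for ratios over the 6 ratio tests. The SE is the ratio of the log2FC to the root of F. Log2 CPM for runs, profiles and exact permutation tests (70 arrangements, smallest p 0.0286) added a prior count of 2, and TPM took gene lengths from the table. The model was tested on simulated data. From the lists, genes called with at least a 2-fold change between lactate and media were named, with up to 2 further called genes per list, and for each member the 2 nearest profiles. Genes chosen after their values were seen are S100a1, S100a8, S100a9, Lgals3bp, Ilf2, Chtop, Tpm3, Emp3 and the named markers. Positions follow GENCODE M21 and promoters RefSeq (7 of 9 genes).

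Donor tags of the labels recur in the low and high runs and were read as different donors in each run. On that reading 3 donors supplied both media and lactate libraries, and the donor pairs these. Their deviations from the group means correlated at 0.374, 0.211 and 0.553 over genes, against -0.441 to 0.371 for libraries of different donors. Title numbers follow donors only for replicates 1 and 4. Alternatives were the likelihood ratio test, DESeq2 1.42.0, voom, other scalings and filters, the 2 groups alone, donor and title blocks, a run term, thinning, a threshold of 0.05 and leaving out each library. The donor block in activated libraries alone and leaving out both naïve libraries richest in macrophage markers were added after seeing the data.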

Additional observations from a re-analysis of the deposited data

Results flagged for a closer look

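S100a6 in media replicate 2 stood far from the other media libraries, at 11.8 CPM against a nearest value of 7.40 CPM and a group mean of 8.23 CPM. Its gap took up 0.844 of the range of the group, above Dixon's critical value for 4 libraries. Of 27 groups of 4 libraries checked (9 genes in 3 conditions) this was the only 1, and chance flags about 1 in 20. Without this library media against naïve was -0.89 for S100a6 (edgeR adjusted p = 0.00524), below the threshold of 0.01 that it misses with all libraries.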

How the results depend on the processing

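Of the 9 genes, 2 were called between lactate and media, and with single libraries left out the count ran from 2 to 4. It was 1 with at least 10 counts in every library, a filter that drops S100a4, 4 with the donor as a replicate block in activated libraries alone, 5 with the 2 compared groups alone and 6 at an adjusted p of at most 0.05, 5 higher and 1 lower (39.7% of all genes). The donor as a replicate block in all 12 libraries left 2 called, with 2.87 for S100a4 (adjusted p = 0.00639) and 2.44 for S100a6 (0.00263). The title number as a replicate block added Lgals3 (adjusted p = 0.00542). Libraries of the same title number correlated at 0.374, 0.297, 0.0038 and 0.553, where replicates 1 and 4 are also donor pairs. Title numbers were not taken as pairs. Counts against naïve stayed within 1.5 times, from 4 to 6 for media and from 5 to 8 for lactate.

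Vim between lactate and media changed sign with DESeq2 (-0.0143), DESeq2's size factors in edgeR (-0.0143), upper quartile scaling (-0.0040), total counts (-0.022), the donor block (-0.099 in all libraries, -0.093 in activated ones) and single libraries left out (-0.053 to 0.146). S100a11 between media and naïve changed sign without naïve replicate 2 or 3 or media replicate 4 (range -0.084 to 0.17) and without both naïve libraries richest in macrophage markers (-0.056), and Lgals3 without naïve replicate 4 (-0.52 to 0.165). These were not called in either sign, and the cause was not tested. S100a11 between lactate and media passed with the likelihood ratio test (0.00627), DESeq2 (0.00898), a run term (0.00446) and without naïve replicate 4 (0.00620), and between lactate and naïve it missed with DESeq2's size factors (0.0102), the 2 groups alone (0.0110) and without naïve replicate 1, 2 or 3 or lactate replicate 3 or 4 (0.0134 to 0.0275). S100a6 between media and naïve passed with DESeq2 (0.00688) and without naïve replicate 3 (0.00433). The adjusted p of the Lgals1 to Lgals3 ratio, lactate against naïve, was 0.0571 without lactate replicate 1 and 0.0686 without lactate replicate 2 or 3. The few reads of S100a4 in media, 21 in all, limit its fold change.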
